A study of Homo sapiens with 12 samples.

Results

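This account describes the 4 libraries of wild-type (WT) HEK293 cells that compare cordycepin given with epidermal growth factor against the solvent alone, 2 WT Cordycepin+EGF libraries against 2 WT DMSO libraries, out of 12 libraries in all. They were chosen by their labels. The question was how much of the EGF induction of early genes was left when cordycepin was present, counted from the unstimulated state. HEK293 is a human embryonic kidney line, and the WT cells used were a derivative obtained together with a line lacking both catalytic AMPK subunits (AMPK KO). All groups were serum starved for 24 h, in medium with 0.1% serum by the labels, while the general methods of the study give another percentage. WT DMSO cells received the solvent (0.025%) without EGF. WT Cordycepin+EGF cells received 25 µM cordycepin for 20 min and then EGF for a further 30 min. The same schedule with solvent in place of cordycepin gave the WT DMSO+EGF libraries, and all 3 treatments were repeated in AMPK KO cells, with 2 libraries in each group, numbered 2 and 3. The EGF dose was labelled 15, with its unit given as nM or µM in different places. The labels gave the solvent-only treatment as 50 min in one place and 20 min in another. Cells given cordycepin without EGF were not analysed here, so the parts of cordycepin and of EGF in a difference from WT DMSO cannot be told apart.

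EGF binds its receptor tyrosine kinase and switches on the RAS to ERK cascade. Within minutes this induces the immediate early genes, which need no new protein synthesis and mostly encode short-lived transcription factors such as EGR1 and FOS. Feedback inhibitors such as the DUSP phosphatases are induced along with them. Cordycepin is 3′-deoxyadenosine, an adenosine analogue without the hydroxyl group from which an RNA chain is extended.

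Values are RPKM, read counts divided by gene length and by the library total, scaled in the test by the upper quartile of each library. The solvent libraries held 15639341 (replicate 2) and 3806335 (replicate 3) recovered reads, and the libraries with cordycepin and EGF 25104904 and 14679364. WT DMSO replicate 3 stood apart. It listed 1170 genes at 0 against 3 to 127 in the other libraries, and it correlated with WT DMSO replicate 2 at r = 0.918, while replicates of the other groups correlated at 0.961 to 0.977. All 8 HEK293 marker genes were listed. NEFM and PAX2 lay under 1 RPKM, and the summed level of the 8 was 134 to 173 RPKM in WT DMSO and 120 in both WT Cordycepin+EGF libraries. Of 10 markers of other cells, 6 were listed, with sums of 13.5 to 17.5 and 17.6 to 25.3 RPKM, mostly from the keratin gene KRT19. The part of these levels in the results was not tested. GEO's labels do not say that replicates came from separate cultures. The study calls them biological replicates, without describing how they were set up. The p-values measure the spread between libraries. That spread was pooled over all 6 groups in 1 fit, although the WT DMSO libraries correlated least. The p-values and intervals can therefore understate the spread of WT DMSO.

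The promoters of EGR1 and SRF are shown first because they hold the CArG box, the element bound by serum response factor (SRF), which together with ERK-activated cofactors drives many early genes. FOS and NR4A1 are shown as early genes without a CArG box in the same window. Each run is the 250 bases before the RefSeq gene start (GRCh38.p14), 5′ to 3′ on the strand of the gene, with CArG boxes found on either strand in capitals.
EGR1 chr5:138465229-138465478 (+ strand): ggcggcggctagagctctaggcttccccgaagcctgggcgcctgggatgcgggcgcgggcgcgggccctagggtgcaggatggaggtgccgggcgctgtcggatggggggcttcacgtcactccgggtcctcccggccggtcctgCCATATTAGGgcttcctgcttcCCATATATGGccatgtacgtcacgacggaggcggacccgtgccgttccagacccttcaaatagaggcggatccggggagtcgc
SRF chr6:43171019-43171268 (+ strand): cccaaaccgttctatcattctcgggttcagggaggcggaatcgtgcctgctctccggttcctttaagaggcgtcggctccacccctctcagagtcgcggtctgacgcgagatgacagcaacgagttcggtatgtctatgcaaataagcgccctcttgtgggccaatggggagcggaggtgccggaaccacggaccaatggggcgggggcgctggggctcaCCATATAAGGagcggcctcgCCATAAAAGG
FOS chr14:75278578-75278827 (+ strand): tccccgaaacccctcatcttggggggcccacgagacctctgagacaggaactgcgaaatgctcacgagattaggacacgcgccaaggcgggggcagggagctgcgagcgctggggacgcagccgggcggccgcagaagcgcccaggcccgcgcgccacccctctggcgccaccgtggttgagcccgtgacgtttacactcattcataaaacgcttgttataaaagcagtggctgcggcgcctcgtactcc
NR4A1 chr12:52022582-52022831 (+ strand): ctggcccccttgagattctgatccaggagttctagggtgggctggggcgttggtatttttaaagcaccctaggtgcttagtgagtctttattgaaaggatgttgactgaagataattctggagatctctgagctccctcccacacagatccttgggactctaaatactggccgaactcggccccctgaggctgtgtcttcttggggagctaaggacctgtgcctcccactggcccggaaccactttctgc
EGR1 and SRF held 2 CArG boxes each, and they were the only ones with a match among 21 early transcription factor genes with a promoter in the table. Over all 27305 promoters of this length, 1.14% held a match, as did 0.969% of those of protein-coding genes tested. The absence of a match says only that these letters are not in the window. The EGR site GCGNGGGCG, searched on both strands, was found in 4 of the 21 promoters, in 8.25% of all and in 14.1% of those of protein-coding genes tested. The GC box GGGCGG, which can overlap an EGR site, was found in 14 of 21 (66.7%), in 42.3% of all and in 67.5% of those of protein-coding genes tested. The CRE TGACGTCA was found in 2 of 21, in 1.77% of all and in 3.06% of those of protein-coding genes tested. SRF itself measured 19.7 and 32.0 RPKM in WT DMSO and 30.4 and 36.8 in WT Cordycepin+EGF, a log2 difference of 0.42 that did not pass the test (limma adjusted p = 0.275).

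EGR1 rose by the largest log2 value of the early genes tested when cordycepin was present. It encodes a zinc finger transcription factor and lies at chr5:138465479-138469303 on the + strand (GENCODE 44, GRCh38). EGR1 measured 2.64 and 2.38 RPKM in WT DMSO, 53.8 and 50.9 in WT Cordycepin+EGF, and 230 and 207 in WT DMSO+EGF. The groups did not overlap, which was common with 2 libraries a side. Both WT Cordycepin+EGF libraries lay above both WT DMSO libraries in 5138 of 22067 genes tested, and below them in 4509. The EGR1 means with cordycepin and EGF (52.4 ± 2.08 RPKM, SD, n = 2) and with solvent (2.51 ± 0.187) differed 20.9-fold. On the log2(scaled RPKM + 0.5) scale, which understates changes of low genes, EGR1 was 4.15 higher than in WT DMSO (95% interval 3.73 to 4.57, limma adjusted p = 8.13e-05). EGF alone raised it by 6.16 (limma adjusted p = 2.48e-06), so that the level with cordycepin was 24.0% of that with EGF. The direct difference between WT Cordycepin+EGF and WT DMSO+EGF was -2.00 (limma adjusted p = 0.0439), the only call in that comparison (0.00453% of genes tested). With the fit restricted to the WT libraries, with a pseudocount of 0.1, without the variance trend or with a replicate block, no gene was called in it. The other alternatives with all libraries called at least 1 gene lower. EGR1 was not called lower when any 1 library of these groups was left out, in fits that leave 1 library in a group.

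FOS, which encodes a subunit of the AP-1 transcription factor, lay closer to its EGF level than EGR1, by value. It lies at chr14:75278826-75282230 on the + strand. FOS measured 0.903 and 0.624 RPKM in WT DMSO, 6.99 and 6.38 in WT Cordycepin+EGF, and 12.2 and 11.8 in WT DMSO+EGF. The means with cordycepin and EGF and with solvent differed 8.75-fold, and the log2 fold change was 2.53 (SE 0.209, limma adjusted p = 0.00559). EGF alone gave 3.29. The level with cordycepin was 55.8% of the EGF level, and the log2 difference from it was -0.76 (limma adjusted p = 0.262).

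EGR3, another member of the EGR family, followed the same order. It measured 0.245 and 0.395 RPKM in WT DMSO, 2.80 and 2.69 in WT Cordycepin+EGF, and 7.29 and 8.77 in WT DMSO+EGF. Its log2 fold change from WT DMSO was 2.00 with cordycepin and EGF (limma adjusted p = 0.0058) and 3.35 with EGF. EGR2 rested on few reads. The 2 WT DMSO libraries held 5 reads against 162 in WT Cordycepin+EGF, a ratio of 15.2 with an exact 95% counting interval of 6.38 to 47.4. EGR2 reached 68.3% of its EGF level, and its log2 fold change was 1.39 (limma adjusted p = 0.051). FOSB, a paralogue of FOS, measured 0.550 and 0.895 RPKM in WT DMSO, 1.91 and 2.38 in WT Cordycepin+EGF, and 3.97 and 4.56 in WT DMSO+EGF. Its log2 fold change was 1.14 (limma adjusted p = 0.0796), while EGF alone gave 1.95 (limma adjusted p = 0.0282). EGR2, EGR3, FOSB, JUNB, MYC and NR4A1 overlap other genes, as do IER2, DUSP1, DDIT3 and LINC02226 below, and reads of the overlapping genes could not be set apart. EGR1, FOS, EGR3, EGR2 and FOSB lay above WT DMSO and below WT DMSO+EGF in both libraries. How many of all genes had this order was not counted. These were also the 5 genes that rose with EGF alone at an adjusted p under 0.05, 0.0227% of the 22067 genes tested.

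**Figure D1:**
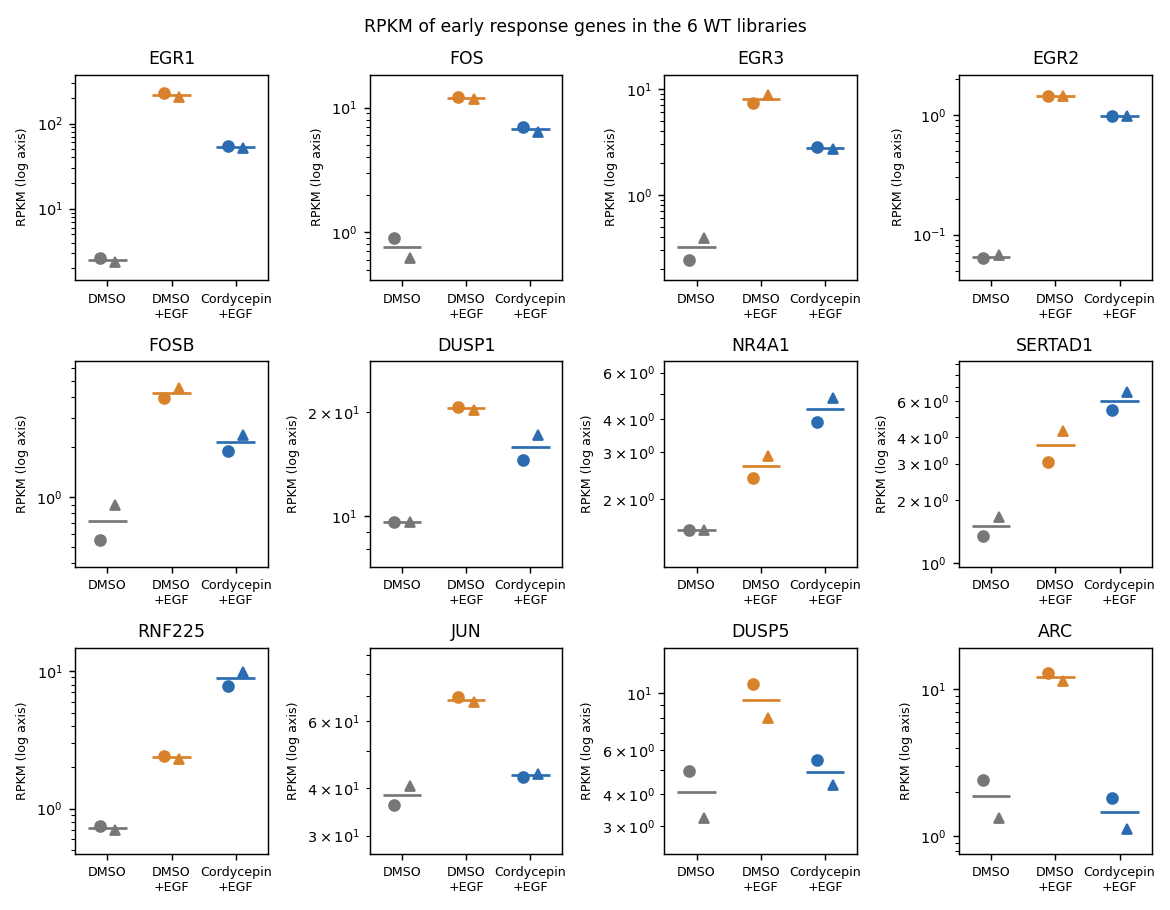
RPKM on a log axis in the 6 WT libraries for 12 early response genes, with circles for replicate 2, triangles for replicate 3 and lines for the mean of each group. EGR1, FOS, EGR3, EGR2 and FOSB lie between the solvent and the EGF level, JUN, DUSP5 and ARC lie near the solvent level, and NR4A1, SERTAD1 and RNF225 lie above the EGF level.

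A second set of early genes lay near or below the solvent level with cordycepin and EGF. ARC, which encodes a cytoskeleton-associated protein best known from neurons, measured 2.41 and 1.33 RPKM in WT DMSO, 12.9 and 11.3 in WT DMSO+EGF, and 1.82 and 1.12 in WT Cordycepin+EGF. The WT DMSO and WT Cordycepin+EGF libraries overlapped, with a log2 difference of -0.24 (95% interval -0.90 to 0.43). Against WT DMSO+EGF, ARC differed by -2.66 on the log2 scale (limma adjusted p = 0.0921). JUN, a further AP-1 subunit, measured 36.1 and 40.6 RPKM in WT DMSO, 69.6 and 67.3 in WT DMSO+EGF, and 42.7 and 43.7 in WT Cordycepin+EGF. Its log2 difference from WT DMSO was 0.19 (95% interval -0.13 to 0.50), which did not pass the test. DUSP5, a nuclear ERK phosphatase, had a log2 difference of 0.27 (95% interval -0.23 to 0.76), against 1.10 with EGF alone.

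MYC, a growth-promoting transcription factor, measured 28.1 and 20.5 RPKM in WT DMSO, 44.9 and 45.8 in WT DMSO+EGF, and 11.3 and 11.1 in WT Cordycepin+EGF. Both WT Cordycepin+EGF libraries lay below both WT DMSO libraries, as they did for 4509 of 22067 genes tested. The log2 difference of MYC was -1.05 (limma adjusted p = 0.136). TRIB1, a pseudokinase gene named here after its values were seen, had the same order, with 18.9 and 12.8, then 30.4 and 25.8, then 10.8 and 8.75 RPKM. DUSP1, IER2 and JUNB lay above WT DMSO and below WT DMSO+EGF in both libraries, as EGR1 and FOS did. How many of all genes had this order was not counted. The changes of DUSP1, IER2 and JUNB were smaller and did not pass the test. Their whole levels were 77.1%, 74.2% and 76.6% of the EGF level. These shares include the solvent level, so they overstate the induction left. By this measure JUN, with a log2 difference of 0.19 from WT DMSO, stood at 63.1%. DUSP1, a MAP kinase phosphatase, measured 9.63 in both WT DMSO libraries, 14.5 and 17.1 in WT Cordycepin+EGF, and 20.7 and 20.3 in WT DMSO+EGF. Its log2 difference from WT DMSO was 0.70 (limma adjusted p = 0.0852), while IER2 had 0.97 (0.162) and JUNB 0.81 (0.124), with limma adjusted p-values in parentheses.

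A further set lay above the level with EGF alone. RNF225, RAB26 and RASD1 were named for their rise over WT DMSO, and NR4A1 for passing a threshold there. That choice partly fixes this order. Of 198 protein-coding genes higher at the study threshold, 192 had a mean above that of WT DMSO+EGF. NR4A1, an orphan nuclear receptor, measured 1.53 RPKM in both WT DMSO libraries, 2.41 and 2.91 in WT DMSO+EGF, and 3.92 and 4.80 in WT Cordycepin+EGF. It rose from WT DMSO by a log2 fold change of 1.27 (limma adjusted p = 0.0466). RNF225, a RING finger gene, measured 0.742 and 0.698 RPKM in WT DMSO, 2.41 and 2.31 in WT DMSO+EGF, and 7.82 and 9.89 in WT Cordycepin+EGF. RNF225 rose by a log2 fold change of 2.95 (limma adjusted p = 0.00559). RAB26, a small GTPase of vesicle transport, measured 3.14 and 3.69, then 5.29 and 5.55, then 10.4 and 12.7 RPKM in the same order of groups, and rose by 1.64 (limma adjusted p = 0.0184). RASD1, a RAS-related GTPase, rose by 1.74 (limma adjusted p = 0.0466), from 0.874 and 0.711 RPKM to 3.53 and 3.99, with 1.24 and 1.15 under EGF alone. The calls of NR4A1 and RASD1 against WT DMSO held in only 7 of 20 alternative fits each. For all 4 genes no WT Cordycepin+EGF library overlapped a WT DMSO+EGF library, a pattern whose share over all genes was not counted. The difference between those groups missed a limma adjusted p of 0.05 (NR4A1 0.262, the others 0.177).

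SERTAD1, a transcriptional coregulator, and GADD45B, a stress sensor gene named after its values were seen, showed the same order. SERTAD1 measured 1.35 and 1.67 RPKM in WT DMSO and 5.42 and 6.58 in WT Cordycepin+EGF, a log2 difference of 1.71 (limma adjusted p = 0.0567). GADD45B measured 4.97 and 4.30 against 9.83 and 8.46. The stress-related transcription factor gene DDIT3 measured 3.28 and 4.37 RPKM in WT DMSO, 4.19 and 5.53 in WT DMSO+EGF, and 7.0 and 11.6 in WT Cordycepin+EGF, a log2 difference of 1.17 (limma adjusted p = 0.116).

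**Figure D2:**
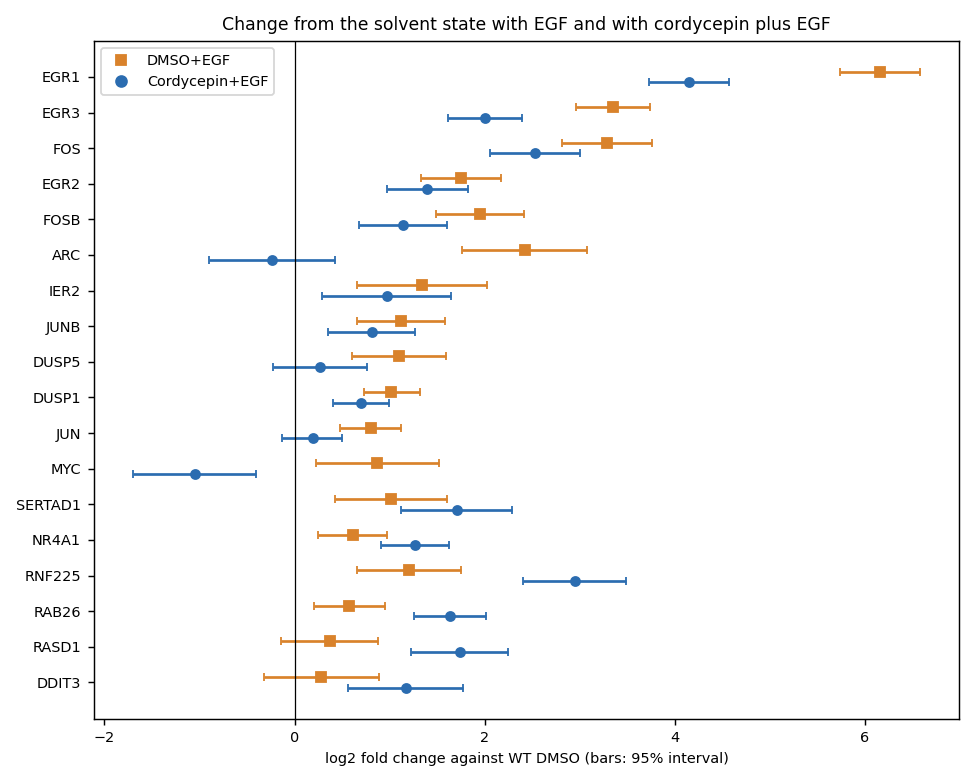
Log2 fold change against WT DMSO for 18 named genes with EGF alone (squares) and with cordycepin and EGF (circles), with 95% intervals from the limma fit. Both share the WT DMSO libraries. EGR1 had 6.16 and 4.15, ARC 2.42 and -0.24, and RNF225 1.20 and 2.95.

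Of the list of 29 immediate early transcription factors, 27 were tested. In WT Cordycepin+EGF against WT DMSO, 4 rose at an adjusted p under 0.05 (EGR1, FOS, EGR3 and NR4A1), where 0.0634% of all genes did. At an unadjusted p under 0.05 there were 14 higher and 1 lower (MYC), beside 12.7% and 6.63% of all genes. The median log2 difference of the list was 0.547, against 0.032 over all genes tested. It was 0.24 without WT DMSO replicate 2 and 0.76 without WT DMSO replicate 3. With EGF alone, which shares the WT DMSO libraries, the list's median was 0.541. In the direct comparison of WT Cordycepin+EGF with WT DMSO+EGF the median was -0.238 and 9 of 27 members were higher. At an unadjusted p under 0.05, 1 was higher (NR4A1) and 8 were lower, beside 8.86% and 7.13% of all genes. The 8 were EGR1, MYC, EGR3, FOSB, FOS, JUN, KLF11 and BHLHE40, the last 2 named after their values were seen. In the fit of only the WT libraries, EGR1 was the only member of the list called against WT DMSO. MAFF, IER5 and MAFK, members outside the rule for named genes and chosen after their values were seen, had log2 differences of 0.88, 0.55 and 0.74 with cordycepin and EGF and 0.60, 0.38 and 0.54 with EGF alone.

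None of the other 12 lists held a gene past an adjusted p of 0.05 in WT Cordycepin+EGF against WT DMSO. At an unadjusted p under 0.05, 12.7% of all genes were higher and 6.63% lower in that comparison. List counts near these shares are not results about the lists. Of 20 feedback inhibitors tested, 1 was higher (DUSP1) and 1 lower (SPRED2) at an unadjusted p under 0.05, with a median of 0.094, whereas EGF alone gave 7 higher, where 6.18% of all genes were, and a median of 0.274. Of 14 inducible signalling proteins, 6 were higher and 1 lower (TRIB1), with a median of 0.325. Of 14 genes of the integrated stress response, 5 were higher and 1 lower, with a median of 0.327. Without WT DMSO replicate 2 this was 1 higher with a median of 0.18, and without WT Cordycepin+EGF replicate 3 it was 1 higher with a median of 0.24. In AMPK KO cells 1 gene of this list was higher and 4 were lower, with a median of -0.373, where 12.2% and 10% of all genes were higher and lower. The 28 genes of the EGF receptor to ERK cascade had 2 higher and 3 lower and a median of -0.110, and the 28 of the PI3K, AKT and mTOR pathway 2 higher and 4 lower and a median of 0.003. Of 22 cleavage and polyadenylation factors, 1 was higher and 4 were lower, with PAPOLA, the poly(A) polymerase, at 45.6 RPKM in both WT DMSO libraries, 32.6 and 35.6 in WT DMSO+EGF, and 34.9 and 32.0 in WT Cordycepin+EGF (log2 difference from WT DMSO -0.44 and -0.43, neither past the adjusted test). Growth factors and matricellular ligands (2 of 8 higher), mRNA decay factors (2 of 7), ID and HES repressors (3 of 10) and adenosine transport and metabolism genes (1 of 10) had none lower. Among 14 cytoskeletal and YAP targets 1 was higher and 2 were lower, and none of 12 heat shock chaperones passed in either direction.

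Over all genes, limma called 14 higher and 1 lower (0.00453% of 22067) at an adjusted p under 0.05, and 2813 higher and 1464 lower at an unadjusted p under 0.05. The number of calls rested on single libraries and on the samples fitted. It was 1867 without WT DMSO replicate 3, 267 without WT DMSO replicate 2, and 1 (EGR1) when only the libraries compared entered the fit. It was 2 without WT Cordycepin+EGF replicate 2 and 1 without WT Cordycepin+EGF replicate 3. Besides the early genes, the calls were RNF225, RASD1, RAB26, a Y RNA (ENSG00000207425), the pseudogene HSD17B1P1, the noncoding MIF-AS1 and ENSG00000233538, and SPSB2, BICDL2 and ENSG00000279273, which fell outside the rule for named genes and were chosen after their values were seen. ENSG00000279273 had 1 read in the WT DMSO libraries together and 142 in WT Cordycepin+EGF, a ratio of 66.6 with a counting interval of 11.8 to 2649. SPSB2, BICDL2, HSD17B1P1, MIF-AS1 and the Y RNA overlap other genes, and the strand setting of the counting was not stated, so reads could be shared with those neighbours. SPSB2 rose by 1.27 and BICDL2 by 1.39 on the log2 scale (limma adjusted p = 0.0413 for each).

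LINC02226, a long noncoding RNA gene at chr5:8333481-8457558 on the - strand, was the only gene called lower. It measured 51.9 and 33.5 RPKM in WT DMSO, 47.5 and 40.8 in WT DMSO+EGF, and 12.4 and 8.21 in WT Cordycepin+EGF. Solvent and EGF levels overlapped, both WT Cordycepin+EGF libraries lay below them, and the log2 fold change from WT DMSO was -1.98 (limma adjusted p = 0.0413). Other large falls did not pass the adjusted test. They were ENSG00000286012, a gene model not yet assigned to a class, the noncoding RNAs GK-AS1, GK-IT1, ENSG00000223374, ENSG00000255421 and ENSG00000290111, the pseudogene VN1R107P, the small nuclear RNA gene RNVU1-34 and a Y RNA (ENSG00000222881), with log2 differences of -1.11 to -2.42 and adjusted p of 0.0567 to 0.116. GK-AS1 and GK-IT1 overlap the gene GK, and the Y RNA lies within TOP2A.

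**Figure D3:**
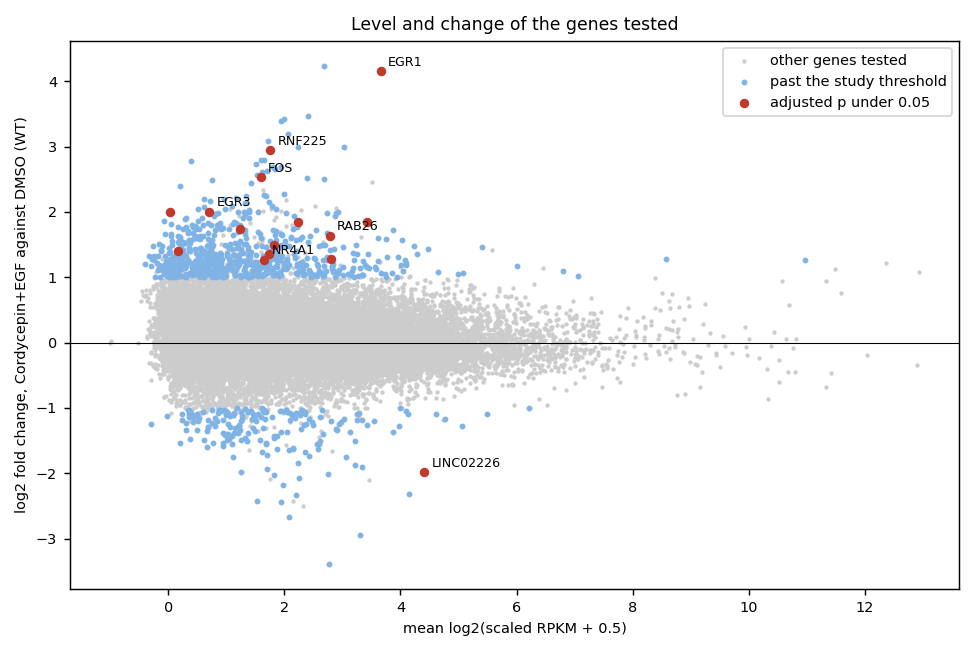
Log2 fold change of WT Cordycepin+EGF against WT DMSO plotted on the mean log2(scaled RPKM + 0.5) of each gene, with genes past the study threshold in blue and the 15 genes past an adjusted p of 0.05 in red. EGR1 (4.15) stands highest among the called genes and LINC02226 (-1.98) is the only one below 0.

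At the threshold used in the study, an unadjusted p of at most 0.05 with a log2 difference of at least 1, 659 genes (2.99%) were higher and 180 (0.816%) lower. Genes with few reads made up most of them. Of the 659 genes, 429 had under 10 expected reads in the shallowest library, as had 161 of the 180 lower genes. In simulated data the fit gave too many small p-values for unchanged genes with so few reads, so these calls are less secure than their p-values state. Among the 15339 genes with at least 10 expected reads, 230 were higher (1.5%) and 19 lower (0.124%). When only these genes were tested, an alternative chosen after seeing the data, limma called 141 higher (0.919%) and 7 lower (0.0456%). They included EGR2 (limma adjusted p = 0.00765), SERTAD1 (0.0195), FOSB (0.0259) and DUSP1 (0.0434), and 102 of the 148 encoded proteins. The filter used the mean over all 12 libraries, including those with EGF, so a gene can pass it on reads outside WT DMSO. EGR2 had 12.3 expected reads but 5 reads in the 2 WT DMSO libraries together, so its call still rests on few reads.

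The genes that were higher were also rich in G and C. Protein-coding genes past the study threshold in this direction (198 of 12822) had a median transcript GC content of 62.8% and exon length of 2136.5 bases, against 48% and 5286 bases over all protein-coding genes tested. Over all genes, the median log2 difference was -0.16 in the lowest GC range (23.08 to 41.64%) and 0.33 in the highest (54.81 to 83.89%). The same medians were -0.11 and 0.21 for EGF alone, which shares the WT DMSO libraries, and 0.04 and 0.02 in AMPK KO cells. Against WT DMSO replicate 2 alone they were -0.23 and 0.42, and against replicate 3 alone -0.10 and 0.24. With GC and length trends removed, also chosen after seeing the data, the study threshold gave 305 higher and 253 lower, so that 54.7% were higher instead of 78.5%. Among genes with at least 10 expected reads and these trends removed, 8 were called, all of them also among the 148. They were EGR1, FOS, EGR3, EGR2, RNF225, RAB26, LINC02226 and EFEMP2, an extracellular matrix gene named after its values were seen. The median of the early transcription factor list was 0.24 with the trends removed.

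**Figure D4:**
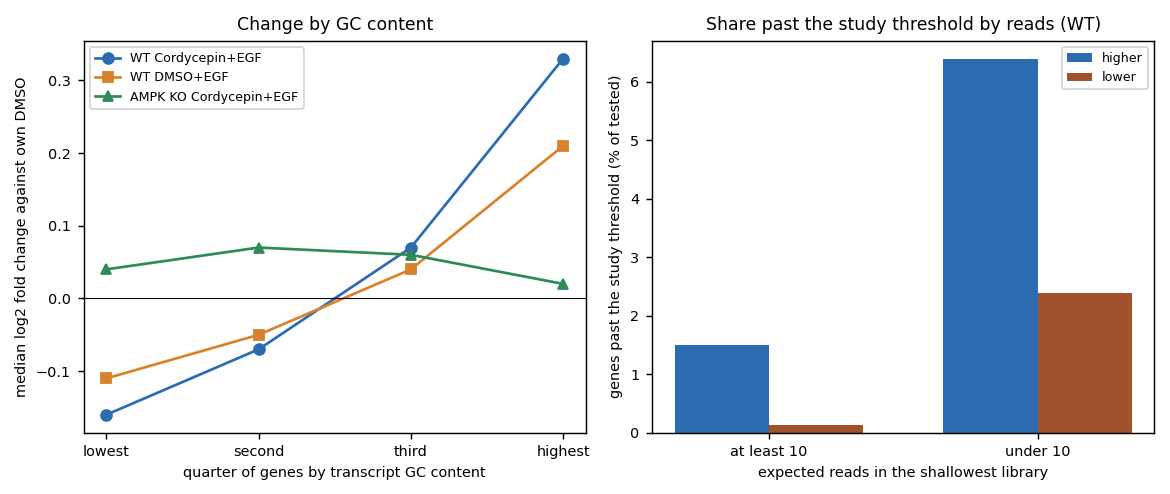
Left, median log2 fold change against the DMSO libraries of the same cells for genes grouped by transcript GC content, rising from -0.16 to 0.33 in WT Cordycepin+EGF and between 0.02 and 0.07 in AMPK KO cells. Right, percent of tested genes past the study threshold in WT cells, 1.5% higher and 0.124% lower with at least 10 expected reads in the shallowest library, and 6.38% and 2.39% with fewer.

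By gene class, 232 of the 659 genes past the study threshold that were higher were lncRNAs (5.07% of those tested), 198 were protein coding (1.54%) and 131 were pseudogenes (3.74%). Of the 180 lower genes, 5 were protein coding: MYC, IRS4, SH3BGRL2, AGK and CNTNAP2, the last 4 named after their values were seen. In IRS4, an insulin receptor substrate, the WT DMSO libraries differed widely, with 153 and 72.1 RPKM against 56.6 and 46.8 in WT Cordycepin+EGF. SH3BGRL2, AGK and CNTNAP2 were likewise higher in WT DMSO replicate 2 (9.57, 6.44 and 4.26 RPKM) than in replicate 3 (4.43, 2.39 and 1.62). Of 233 small nuclear RNAs, 24 were lower (10.3%) and 16 higher (6.87%), but of the 24 with at least 10 expected reads 1 was lower and 3 were higher. Of 12 mitochondrial tRNAs 5 were lower, and of the 3 with enough reads 1. Reads of such short or repeated RNAs are uncertain.

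The same comparison was made in AMPK KO cells, whose libraries are not shared. RNA of the targeted genes was still listed there, PRKAA1 at 7.03 to 8.51 RPKM against 11.2 to 21.9 in WT cells, and PRKAA2 at 5.39 to 7.43 against 6.78 to 12.1. The levels of PRKAA2 overlapped between the lines, so its RNA level does not check the label. There EGR1 rose from 2.38 and 2.17 to 44 and 70.0 RPKM, a log2 fold change of 4.39 (limma adjusted p = 4.98e-05), FOS by 2.95 (0.00151), EGR3 by 2.43 (0.00151), EGR2 by 1.72 (0.0147), FOSB by 1.54 (0.0253), RNF225 by 2.34 (0.0107) and RAB26 by 1.86 (0.00785), with limma adjusted p-values in parentheses. All 14 genes called higher in WT cells had a positive log2 difference in AMPK KO cells too, as had 12068 of all 22067 genes tested. Of the 14, 10 were called there, where 0.331% of genes were called higher. Both comparisons used the same pooled spread of each gene, so the calls in WT and AMPK KO cells are not independent. Wider sets of WT rises were positive in AMPK KO cells less often. These were 415 of the 659 genes past the study threshold and 96 of the 141 called with enough reads. The difference between the WT and AMPK KO effects, tested as an interaction, was -0.24 for EGR1 (95% interval -0.83 to 0.36) and -0.42 for FOS (95% interval -1.09 to 0.25). No gene passed this interaction test in limma at an adjusted p under 0.05, while 4905 (22.2%) had an unadjusted p under 0.05 and voom on recovered reads called 2446. Among the named genes, the WT effect exceeded that in AMPK KO cells by 1.67 for SERTAD1 (95% interval 0.84 to 2.5), 0.82 for DUSP1 (0.41 to 1.24), 1.81 for HSD17B1P1 (1.04 to 2.58) and 1.76 for the Y RNA ENSG00000207425 (1.06 to 2.45), each with a limma adjusted p of 0.121. The solvent levels of SERTAD1 differed too, at 3.40 and 5.24 RPKM in AMPK KO DMSO against 1.35 and 1.67 in WT DMSO. With cordycepin and EGF, SERTAD1 measured 5.24 and 3.30 RPKM in AMPK KO and 5.42 and 6.58 in WT cells. DDIT3 had 1.17 in WT and -0.69 in AMPK KO cells, a difference of 1.86 (95% interval 1.00 to 2.72, limma adjusted p = 0.121). MYC had -1.05 and 0.21, a difference of -1.26 (95% interval -2.17 to -0.35, limma adjusted p = 0.142). SERTAD1, HSD17B1P1, the Y RNA, DDIT3 and MYC were named at least partly for their change in WT cells, which enters this difference. That choice partly fixes a larger effect in WT than in AMPK KO cells. LINC02226 had -1.12 in AMPK KO cells (limma adjusted p = 0.0862).

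**Figure D5:**
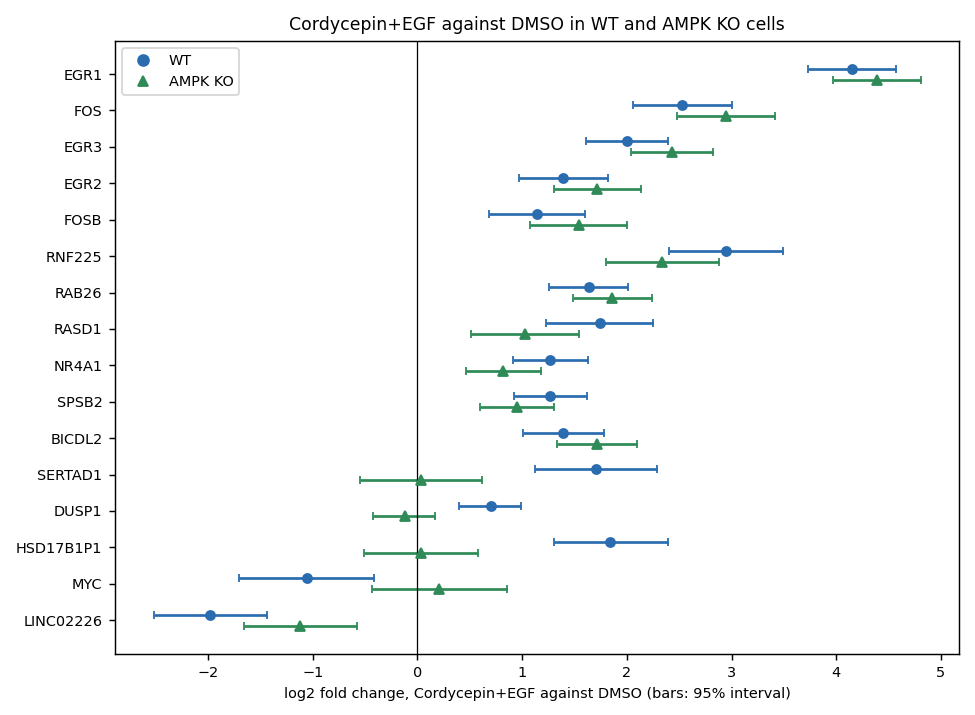
Log2 fold change of Cordycepin+EGF against DMSO in WT (circles) and AMPK KO cells (triangles) for 16 named genes, with 95% intervals from the limma fit. EGR1 (4.15 and 4.39), FOS (2.53 and 2.95) and EGR3 (2.00 and 2.43) lie close in both lines. SERTAD1 had 1.71 and 0.03, with a higher solvent level in AMPK KO cells.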

How the data were processed

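RNA was extracted from serum-starved HEK293 cells, and stranded, ribosomal RNA-depleted libraries were sequenced as paired reads. Per the study's methods and the labels, the authors used the genome build GRCh38.p13, took gene counts with Rsubread, discarded replicate 1 of every condition as an outlier and deposited RPKM values for the 12 libraries. The annotation and the strand setting of the counting were not given in the sources used here. A row without a gene name and a row of column percentiles were left out. Gene IDs were matched to GENCODE release 44 (26029 of 26058 listed genes). Reads were recovered from the RPKM steps. For 25082 genes (96.25%) every library gave whole reads to within 0.05, and MYC was not among these genes. Reads carry no molecular identifiers, so counting intervals cover counting error only.

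RPKM values were scaled by the upper quartile and analysed as log2(scaled RPKM + 0.5) with limma 3.58.1 (R 4.3.3, trended empirical Bayes, two-sided). All 12 libraries entered 1 fit of 6 group means with 6 residual degrees of freedom. The test covered the 22067 genes whose RPKM averaged 0.5 or more over all libraries, with Benjamini-Hochberg adjustment over all of them. WT Cordycepin+EGF was compared with WT DMSO. WT DMSO+EGF against WT DMSO, WT Cordycepin+EGF against WT DMSO+EGF, and the same treatment in AMPK KO cells were given beside it. The first 3 share libraries.

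The fit was tested on simulated counts. It returned the sizes and signs built into them. It gave too many small p-values for unchanged genes with few reads, since it models the spread by RPKM and not by reads, while voom did so much less. A test of only the genes with at least 10 expected reads in the shallowest library was therefore added after seeing the data, as was removal of GC and length trends. Expected reads came from the mean RPKM over all 12 libraries, the exon length and the depth of WT DMSO replicate 3.

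The members, gene lists and rules were chosen with earlier results of these data known. Named genes were EGR1 and FOS. To these were added up to 10 rises and 10 falls of largest size at an adjusted p under 0.05, averaging 1 RPKM or more, with no overlap between groups. These were filled to 10 by the lowest p past the study threshold, where the higher group averaged 5 RPKM or more. Members of 13 gene lists past the adjusted or the study threshold here or with EGF alone, and up to 4 others per list by level, completed the rule. Promoters were RefSeq sequences (GRCh38.p14). Alternatives were other pseudocounts, filters, scalings, sample sets, a replicate block, array weights, voom on recovered reads and leaving out each library.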

Additional observations from a re-analysis of the deposited data

How the results depend on the processing

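EGR1 was called higher under all 20 alternatives, with log2 fold changes from 3.93 to 4.35. FOS and RNF225 were called in 15 of 20, EGR3 and RAB26 in 14 and LINC02226 in 13. NR4A1, RASD1, HSD17B1P1 and MIF-AS1 were each called in 7 of 20. Over the named genes, 484 of 654 values kept direction and side of the threshold, 132 lost the call, 35 gained it and 3 reversed. The reversed values were DUSP5 at -0.01 without WT DMSO replicate 3, and ARC at 0.10 without WT DMSO replicate 2 and 0.03 without WT Cordycepin+EGF replicate 3. With 1 library left out, DUSP5 ranged from -0.01 to 0.55 and ARC from -0.58 to 0.10. The cause was not tested for any change below unless stated.

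The 15 genes called in WT Cordycepin+EGF against WT DMSO became 43 with a pseudocount of 0.1, 5 with a pseudocount of 1, 44 without the variance trend, 3 with array weights, 323 with voom on recovered reads, 148 with at least 10 expected reads and 8 with that filter and GC and length trends removed. The count was 1 with only the groups compared and 1 with only the 6 WT libraries, both fits with fewer samples. Leaving out 1 library gave 1 to 1867, with 1867 without WT DMSO replicate 3, 267 without WT DMSO replicate 2, 2 without WT Cordycepin+EGF replicate 2 and 1 without WT Cordycepin+EGF replicate 3, so the number of calls rests on single libraries. The 659 genes higher at the study threshold became 1108 and 354 with pseudocounts of 0.1 and 1, 1102 with voom, 305 with GC and length trends removed, 231 with enough reads, 71 with both, and 470 to 1191 with 1 library left out. The 180 lower genes became 108 with a pseudocount of 1, 71 with array weights, 440 with voom, 20 with enough reads, 27 with both, and 70 to 557 with 1 library left out. Array weights moved the share of higher genes from 78.5% to 87.8%.

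The 5 genes called for EGF against DMSO became 1 with only the groups compared, 3 with only the WT libraries, 3 with array weights, 9 with voom and 9 with enough reads, and 3 to 702 with 1 library left out, the 702 without WT DMSO replicate 2. For WT Cordycepin+EGF against WT DMSO+EGF, where 1 gene was called, the count was 0 with a pseudocount of 0.1, only the groups compared, only the WT libraries and no variance trend, 2 with a pseudocount of 1 and with GC and length trends removed, 16 with array weights, 827 with voom, 5 with enough reads and 7 with both, and 0 to 1 with 1 library left out. The interaction with AMPK KO, with 0 genes called, gave 1 with GC and length trends removed, 2446 with voom, and 0 to 3568 with 1 library left out, the 3568 without WT DMSO replicate 3 and 13 without replicate 2.

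Replicate numbers were not treated as pairs, since the labels do not tie a number to a batch and only 2 numbers exist. Deviations of same-numbered WT libraries correlated at 0.136 to 0.314. With the replicate block over all 12 libraries the counts were 6, 1 for the interaction and 0 against WT DMSO+EGF. With the replicate block in only the 6 WT libraries they were 1 (EGR1, adjusted p = 0.00825), 1 for EGF and 0 against WT DMSO+EGF. With the block, the early transcription factor list had 3 calls over all 12 libraries and 1 in the WT libraries, where it had 1 without the block too. WT DMSO replicate 3 had 3806335 reads, so low genes rest on few reads there, and its depth cannot be told apart from other differences of that library.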

Other observations

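Protein-coding genes higher at the study threshold in WT Cordycepin+EGF than in WT DMSO had an annotated gene on the same strand ending within 5000 bases upstream in 49% of cases, against 19.6% of all protein-coding genes tested. Of these 198 genes, 192 had a mean RPKM above that of WT DMSO+EGF, a count that the choice of genes high in WT Cordycepin+EGF partly fixes, and 8 belonged to the gene lists. Their level in WT Cordycepin+EGF averaged 5 RPKM or more in 63 genes. These are descriptions, and their part in the differences was not tested.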
